A study of Mus musculus with 2 samples.

Results

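Myb binding was examined at 9 genes of the Ras signaling pathway in bone marrow cells of WT mice from which mature lineages had been depleted (Lin- cells). The set held the Ras genes Nras and Hras and 7 genes whose products restrain the pathway, namely Nf1, Rasa2, Cbl, Cblb, Spred1, Spry2 and Dusp6. They were 9 of the 21938 protein-coding genes of GENCODE vM21. A Myb peak was assigned to a gene when its summit, the base of highest signal, lay in the gene body or within 30 kb of it, and 48 of the 25793 peaks met this rule.

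Ras proteins are small GTPases that pass signals from cytokine and growth factor receptors to the RAF, MEK and ERK kinases when they carry GTP. GTPase-activating proteins (GAPs) such as neurofibromin, the product of Nf1, and Rasa2 switch Ras off. Cbl and Cblb are ubiquitin ligases that mark activated receptors and their adaptors for degradation, Spred1 brings neurofibromin to the membrane where it meets Ras, Spry2 is a feedback inhibitor of receptor signaling, and Dusp6 is a phosphatase that inactivates ERK. In blood-forming cells, activating mutations of Ras genes and loss of NF1 or CBL are known from myeloid leukemias. Myb is a transcription factor that hematopoietic progenitors need.

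The data came from 1 chromatin immunoprecipitation (ChIP-Seq) library made with an antibody against Myb, and from 1 library made with nonspecific rabbit IgG that served as the background for peak calling. The cells were bone marrow cells left after depletion of mature lineages, and the labels give their genotype as WT. Mice of both sexes on a C57BL/6 background were used in the study, and its WT mice were elsewhere Ep300 fl/fl animals without Cre that had received poly(I:C). Whether that held for this preparation, and the age, sex and number of its mice, are not given in the sources used here. With 1 library per antibody there was no replicate check, so no test was run and all values below describe this Myb library.

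Each peak carries a fold enrichment, which is the height of the Myb signal divided by the IgG background, and a q-value given as −log10. The number of Myb reads over each summit and the matching IgG background were recovered from these values. The fold enrichment was made from Myb reads multiplied by 0.769, with 1 added to this product and to the background, so it is lower than the plain ratio of reads to background. IgG backgrounds are given here on the scale of the Myb reads. The lowest one at these genes, 1.90 reads, was the genome-wide background and not the IgG signal at the peak itself. Over the whole list the median peak had a fold enrichment of 4.51 and 18 reads, and 56.1% of peaks had fewer than 20 reads, so most peaks rest on few reads. Intervals on reads are exact Poisson 95% intervals and those on shares are exact (Clopper-Pearson) 95% intervals, and both cover counting error only. In 7.24% of the list the q-value was above 0.05, although this was the limit for peak calls in the study's methods. A peak list holds no expression, and the cell type could be checked only through binding. Of 6 progenitor genes, 3 had a peak within 3 kb of a start site, namely Kit, Flt3 and Gata2, whereas Cd34 and Ly6a were among those that did not. By the same rule 39.9% of protein-coding genes had a peak, so 3 of 6 is near that share. Of 6 genes of mature lineages, 1 had such a peak, and Cd3e, Cd4, Ms4a1 and Ly6g were among those that did not.

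All 9 genes had at least 1 Myb peak, against 62.8% of protein-coding genes by the same rule. At 8 of the 9 genes a summit was found at most 3 kb from a start site of the gene's own transcripts, called a promoter peak here, against 39.9% of protein-coding genes. Hras was the exception. When only the 5′ end of the gene was used, 7 of the 9 had a peak within 3 kb, against 36.5% of protein-coding genes, because the promoter peak of Nf1 lay at an internal start site far downstream. A promoter peak with a −log10 q of at least 5 was present at 3 genes, Cbl, Spred1 and Dusp6, against 24.3% of protein-coding genes. These shares describe 9 chosen genes, whose windows of 64.3 to 302 kb compare with a median window of 77.4 kb over protein-coding genes, and a longer window can hold more peaks.

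Of the 48 peaks, 25 lay in a gene body and 23 in the flanks. Those in the bodies fell in introns 21 times and in exons 4 times. The start site nearest to the summit belonged to the gene itself for 35 peaks, spread over 8 genes, against 40.3% of protein-coding genes with at least 1 such peak. For the remaining 13 peaks, at Hras, Nf1, Cbl, Cblb and Dusp6, the nearest start site was that of another gene. The plot of peak positions along the genes shows that these 13 peaks include both peaks of Hras and 6 of the 8 peaks of Nf1.

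**Figure D1:**
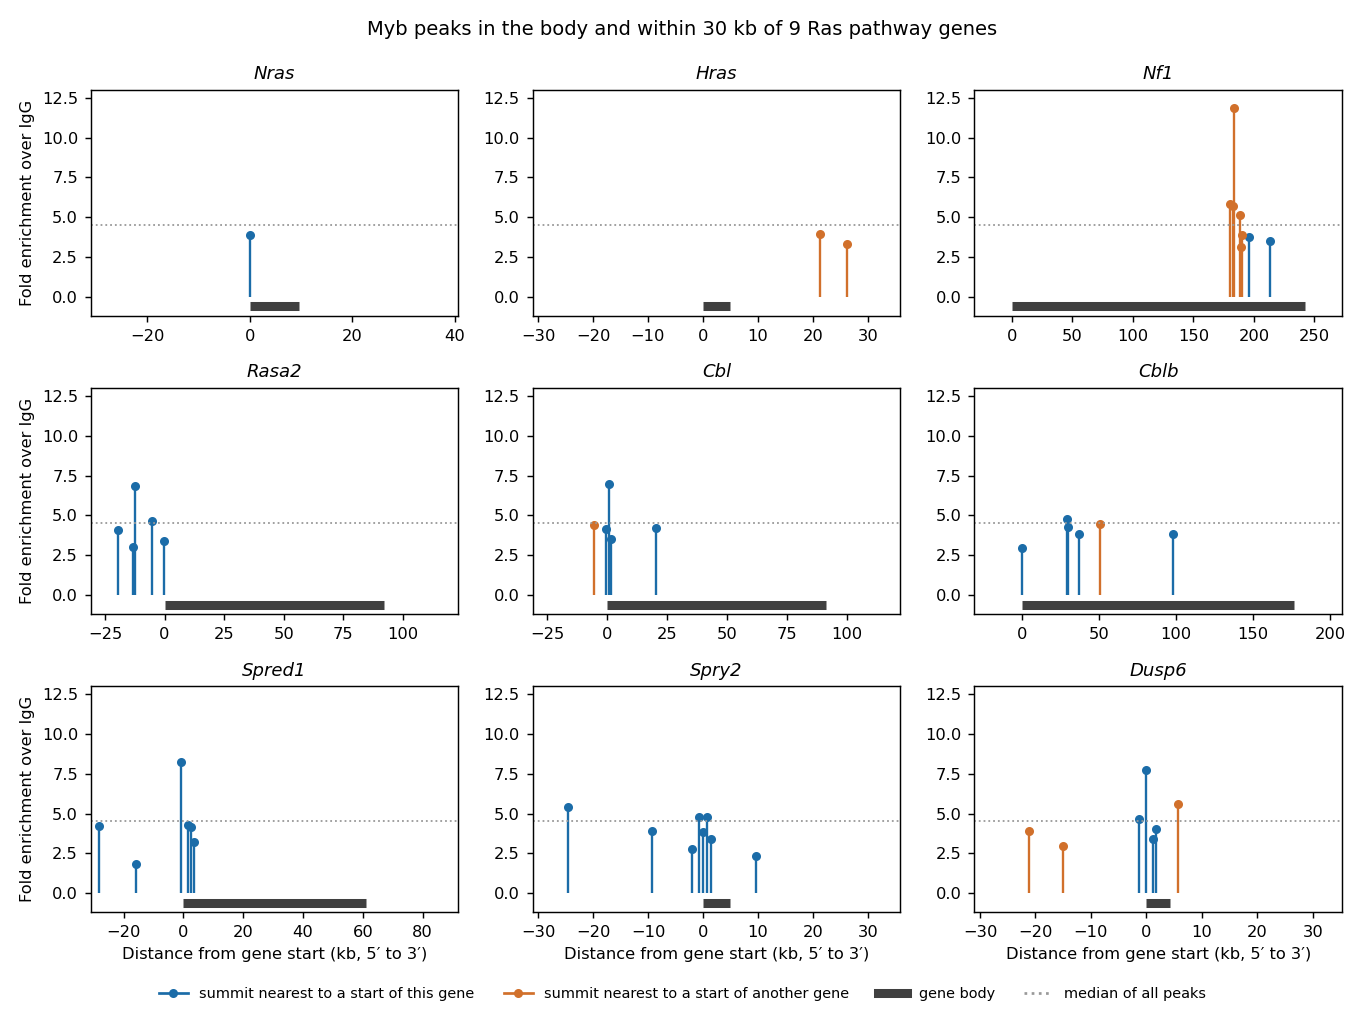
Position (x, kb from the gene start, 5′ to 3′) and fold enrichment over IgG (y) of every Myb peak in the body or within 30 kb of the 9 genes, with the gene body as a dark bar and the median of all 25793 peaks (4.51) as a dotted line. Peaks cluster at the gene start in Cbl, Spred1, Spry2 and Dusp6, whereas at Nf1 they lie 180.261 kb or more downstream and the peaks of Hras lie beyond its 3′ end.

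The Ras genes carried 3 peaks. Nras (chr3:103058285-103067914, plus strand) had 1 peak, at chr3:103058193-103058558, with a summit 81 bp downstream of the gene start in the 5′ UTR of exon 1. It had 24 reads (95% interval 15.4 to 35.7) against an IgG background of 5.20 reads, a fold enrichment of 3.89 and a −log10 q of 4.46. The sequence around the summit was 68.8% G and C, and its fold enrichment was at the 29.7 percentile of all peaks. Nras was thus bound at its own promoter, at a level below the median of the list. Hras (chr7:141189105-141194005, minus strand) had no summit in its body or upstream of it. Its 2 peaks lay 21.282 and 26.184 kb downstream of the gene start, and both were within 307 bp of a start site of Rnh1, which encodes a ribonuclease inhibitor. The stronger one, at chr7:141172337-141172862 and 134 bp from an Rnh1 start, had 23 reads (14.6 to 34.5) and a fold enrichment of 3.97. The other, at chr7:141167703-141167981, had 11 reads (5.49 to 19.7) and a fold enrichment of 3.32. The summit nearest to any annotated start site of Hras was 19.254 kb away, so this library held no peak at the Hras promoter. The weaker peak near Rnh1 was the single one of the 3 with a Myb motif close to its summit. Its 101 bases (chr7:141167771-141167871, mm10, plus strand) are shown with the motif TAACGG in capitals, since they hold the only Myb motif among the summits assigned to a Ras gene.
Hras_peak_2: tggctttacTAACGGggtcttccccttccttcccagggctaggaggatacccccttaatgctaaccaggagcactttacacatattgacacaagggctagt

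Nf1 (chr11:79339693-79581612, plus strand, 241.9 kb, 58 exons), the gene of the GAP neurofibromin, had 8 peaks, and the summit closest to its 5′ end was 180.261 kb away. Of these, 6 lay in intron 36 (chr11:79475884-79535602), where their summits spanned 10.073 kb. This intron holds the small genes Evi2, Evi2b, Evi2a and Omg on the opposite strand, and each of the 6 summits lay inside a transcription unit of the Evi2 cluster, whose genes encode membrane proteins of blood cells. No summit lay inside Omg, a myelin glycoprotein gene. The strongest peak of all 48, at chr11:79522919-79524889, was 100 bp from a start site of Evi2b. It had 45 reads (32.8 to 60.2) against a background of 2.60 reads, a fold enrichment of 11.9 and a −log10 q of 26.0, and it ranked 577 of 25793 by fold enrichment. Nf1 was therefore the single gene of the 9 with a peak of 10-fold or more, which 8.95% of protein-coding genes had, and that peak was nearest to a nested gene. The peak with the next most reads in this intron, 154 bp from a start of Evi2a, had 32 reads (21.9 to 45.2) and a fold enrichment of 5.12. The 4 others in the intron had fold enrichments of 5.83, 5.72, 3.14 and 3.90.

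The 2 peaks of Nf1 nearest to a start site of Nf1 itself lay further downstream. The one counted as its promoter peak, at chr11:79535356-79535883, had its summit in coding exon 37, 1202 bp from the start of a shorter annotated transcript, with 13 reads (6.92 to 22.2) and a fold enrichment of 3.75. The last one, in intron 47, had 17 reads (9.90 to 27.2) and a fold enrichment of 3.52. Both were below the median of the list. Stretches around the Myb motifs at 3 Nf1 summits are shown for mm10, plus strand, with the motif in capitals. They lie at chr11:79523692-79523721 beside the Evi2b start, at chr11:79527956-79527985 beside the Evi2a start, (the nearer of 2 motifs there, the other being CAACTG with its far end 49 bp from the summit), and at chr11:79552736-79552836 in intron 47, where the motif began 13 bp from the summit.
Nf1_peak_3: ttcagtgcggatTAACGGtggtctccagcg
Nf1_peak_4: tgttttgtttttTAACTGaattttcatttc
Nf1_peak_8: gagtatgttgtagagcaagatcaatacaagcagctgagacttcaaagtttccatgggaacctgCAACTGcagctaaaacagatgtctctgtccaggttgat

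Rasa2 (chr9:96539300-96631617, minus strand), the other GAP gene of the set, showed the opposite layout. All 5 of its peaks lay upstream of the gene and were nearest to its own start. The summits were 19.489, 13.320, 12.491, 5.139 and 0.247 kb from the gene start, with fold enrichments of 4.10, 3.04, 6.86, 4.64 and 3.41. The strongest was thus a distal one, at chr9:96643829-96644438, with 25 reads (16.2 to 36.9) and a −log10 q of 10.04, in a stretch that the reference marks as repeat. The promoter peak was the weakest by reads, with 12 (6.20 to 21.0). A Myb motif was present at the most distal of the 5 summits, shown here (chr9:96651056-96651156, mm10, plus strand, motif CAACTG in capitals).
Rasa2_peak_1: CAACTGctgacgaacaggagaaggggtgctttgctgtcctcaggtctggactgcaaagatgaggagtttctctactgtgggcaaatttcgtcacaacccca

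The ubiquitin ligase genes differed in where their strongest signal lay. Cbl (chr9:44142976-44234049, minus strand) had 5 peaks, 3 of which were promoter peaks with summits within 2241 bp of each other. The strongest, at chr9:44232554-44234006, had its summit in intron 1, 742 bp from the gene start, with 29 reads (19.4 to 41.6), a fold enrichment of 6.98 and a −log10 q of 11.4. The flanking promoter peaks had fold enrichments of 4.12 upstream and 3.52 downstream, and another peak in intron 1, 20.390 kb from the gene start, had 4.20. The fifth peak, with 4.40, was nearest to the neighboring gene Ccdc153. None of the 5 Cbl summits had a Myb motif within 50 bp. The window of the strongest one (chr9:44233257-44233357, mm10, plus strand) is shown because it held an ETS motif, the core that ETS family factors recognize, in capitals on the minus strand as CTTCCT.
Cbl_peak_3: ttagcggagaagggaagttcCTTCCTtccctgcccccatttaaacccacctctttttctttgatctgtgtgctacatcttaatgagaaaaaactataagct

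Cblb (chr16:52031225-52208048, plus strand) had 6 peaks, all within the gene body. Its promoter peak, in the 5′ UTR of exon 1 and 149 bp from the gene start, had 14 reads (7.65 to 23.5), a fold enrichment of 2.94 and a −log10 q of 1.19, which is a q above 0.05. The other 5 were intronic. The strongest by fold enrichment, at chr16:52060156-52060708 in intron 3, had 15 reads (8.40 to 24.7) and a fold enrichment of 4.79, whereas its neighbor in the same intron, 29.940 kb from the gene start, had 32 reads (21.9 to 45.2) over an IgG background of 6.50 reads and a fold enrichment of 4.27. The intronic peaks at 36.974, 50.657 and 98.325 kb from the gene start had fold enrichments of 3.84, 4.44 and 3.84. The interval of the intronic peak with 32 reads overlapped that of the promoter peak and lay above those of the peaks at 36.974 and 98.325 kb, with 11 reads each (5.49 to 19.7). The peak with 32 reads held the Myb motif TAACTG on the minus strand at 2 places, and the most downstream peak held it once. Both windows are shown for mm10, plus strand, with the motifs in capitals (chr16:52061115-52061215 and chr16:52129500-52129600).
Cblb_peak_3: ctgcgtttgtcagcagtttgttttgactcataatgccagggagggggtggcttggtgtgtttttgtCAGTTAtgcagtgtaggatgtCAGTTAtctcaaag
Cblb_peak_6: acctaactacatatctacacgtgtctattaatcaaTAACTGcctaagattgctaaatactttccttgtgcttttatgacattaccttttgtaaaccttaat

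The feedback inhibitors Spred1 and Spry2 were each nearest to all peaks in their windows. Spred1 (chr2:117121374-117182279, plus strand) had 6 peaks, 3 of them promoter peaks with summits spanning 3337 bp. The strongest, at chr2:117120419-117121205 and 768 bp upstream of the gene start, had 25 reads (16.2 to 36.9) against a background of 1.90 reads, a fold enrichment of 8.22 and a −log10 q of 12.2, and its fold enrichment was at the 91.0 percentile of all peaks. By fold enrichment it was the strongest of the 19 promoter peaks of the 9 genes, with the genome-wide background as its divisor. Promoter peaks of Dusp6 (39 reads, −log10 q of 16.6) and Cbl (29 and 26 reads) had more reads. In intron 1, summits at 1.631, 2.569 and 3.616 kb from the gene start had fold enrichments of 4.29, 4.15 and 3.22. The upstream peak at 15.869 kb had the lowest fold enrichment of the 48, 1.82, with 20 reads over an IgG background of 10.4 reads. That peak and the one at 3.616 kb had q-values above 0.05. The summit 768 bp upstream was the only promoter summit of the 9 genes with a Myb motif within 50 bp, and its window (chr2:117120556-117120656, mm10, plus strand) is shown with the motif TAACGG in capitals, beginning 18 bp from the summit.
Spred1_peak_3: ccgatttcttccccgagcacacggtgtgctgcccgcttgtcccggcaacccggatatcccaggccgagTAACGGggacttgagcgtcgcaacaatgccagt

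Spry2 (chr14:105891947-105896819, minus strand) had 8 peaks around a gene of 4.87 kb. Its 5 promoter peaks had summits 2074, 721 and 60 bp upstream and 767 and 1398 bp downstream of the gene start, with fold enrichments of 2.75, 4.78, 3.84, 4.78 and 3.41 and 11 to 14 reads each. No single promoter peak of Spry2 had more than 14 reads, so the locus was marked by many weak peaks in a row. The strongest lay 24.563 kb upstream, at chr14:105921077-105921537, with 16 reads (9.15 to 26.0) and a fold enrichment of 5.40. Of the 8 peaks, 2 had q-values above 0.05, the promoter peak farthest upstream and the peak 9.721 kb downstream of the gene start. The peak 9.197 kb upstream had a fold enrichment of 3.92 and a Myb motif that began 4 bp from its summit, the smallest such distance in the set. That window (chr14:105905966-105906066, mm10, plus strand) is shown with the motif CAACTG in capitals on the minus strand.
Spry2_peak_2: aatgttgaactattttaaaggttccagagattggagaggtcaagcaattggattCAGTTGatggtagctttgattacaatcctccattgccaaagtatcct

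Dusp6 (chr10:99263231-99267489, plus strand), the ERK phosphatase gene, had 7 peaks around a body of 4.26 kb. Its 4 promoter peaks spanned 3094 bp, and the strongest of them, at chr10:99262506-99263897 with a summit 126 bp upstream of the gene start, had 39 reads (27.7 to 53.3), a fold enrichment of 7.75 and a −log10 q of 16.6. This was the promoter peak with the most reads in the set. The other promoter peaks, 1394 bp upstream and 1248 and 1700 bp downstream, had fold enrichments of 4.67, 3.43 and 4.01. The other 3 were nearest to start sites of lincRNA genes, at 21.108 and 15.028 kb upstream (Gm48884) and 5.633 kb downstream of the gene start (Gm48089). The downstream one had 28 reads (18.6 to 40.5) and a fold enrichment of 5.64, the second highest at Dusp6. No Dusp6 summit had a Myb motif within 50 bp. In the 250 bases upstream of the RefSeq start (chr10:99262981-99263230, GRCm38.p6, plus strand), which the strongest peak covers, the motif CAACTG lay on the minus strand 65 bp from the summit, in capitals here.
Dusp6_promoter: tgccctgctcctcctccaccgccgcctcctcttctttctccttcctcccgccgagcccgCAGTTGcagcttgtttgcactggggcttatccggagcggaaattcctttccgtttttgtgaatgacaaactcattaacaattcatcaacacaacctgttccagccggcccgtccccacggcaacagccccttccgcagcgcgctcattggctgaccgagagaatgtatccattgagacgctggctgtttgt

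Set side by side, the Ras genes carried fewer peaks per gene than the negative regulators. The 2 Ras genes had 1 and 2 peaks, and the 7 negative regulators had 5 to 8. Promoter peaks were present at 1 of the 2 Ras genes and at all 7 negative regulators, against 39.9% of protein-coding genes. The one of Nf1 lay at an internal start site, and the one of Cblb had a q above 0.05. Within 3 kb of the 5′ end, 1 Ras gene and 6 negative regulators had a peak, against 36.5% of protein-coding genes. Fold enrichments ran from 3.32 to 3.97 (median 3.89) over the 3 peaks of the Ras genes and from 1.82 to 11.9 (median 4.12) over the 45 peaks of the negative regulators, so the ranges overlapped and the medians were close. None of the 3 and 15 of the 45 were above the median fold enrichment of the whole list. Genes of 1 library are not replicates, and 2 genes against 7 were not tested.

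The windows differed in length between the genes. Per 100 kb of window, the Ras genes had 2.23 peaks and the negative regulators 4.12, a ratio of 1.85 with an exact 95% interval for counting error of 0.593 to 9.29, which includes a ratio of 1. With 100 kb in place of 30 kb around each body the ratio turned to 0.812, with 17 peaks at the Ras genes and 69 at the negative regulators. The interval counts each peak as independent, which neighboring peaks of a locus are not, and it is no test of the genes. Nras, with 1.44 peaks per 100 kb, was close to the median of protein-coding genes (1.38), and Hras, with 3.08, was within the range of the GAP and ligase genes. Nf1, Rasa2, Cbl and Cblb had 2.65, 3.28, 3.31 and 2.53 peaks per 100 kb. The feedback genes stood higher, with 4.96 at Spred1, 12.3 at Spry2 and 10.9 at Dusp6, and the densities of Spry2 and Dusp6 were at the 97.2 and 96.1 percentiles of protein-coding genes. These densities count weak peaks as well. With a −log10 q of at least 5, Spred1 and Spry2 kept 1 peak each and Dusp6 kept 3. By that limit Nf1 kept 4, Cbl 3, and Rasa2 and Cblb 1 each. Counted by number alone, Nf1 with 8 peaks ranked as high as Spry2, both at the 94.2 percentile of protein-coding genes, which the plot of number and density per gene shows.

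**Figure D2:**
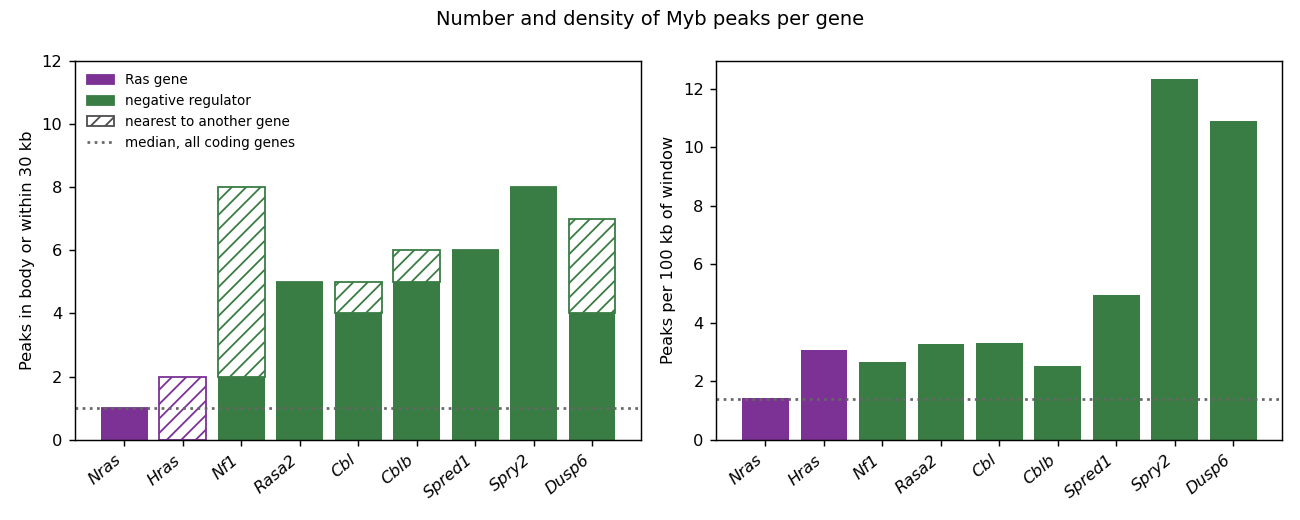
Number of Myb peaks in the body or within 30 kb of each gene (left) and the same per 100 kb of that window (right), for Ras genes (purple) and negative regulators (green), with hatching for peaks nearest to another gene and dotted lines at the medians of protein-coding genes (1 peak and 1.38 per 100 kb). Nf1 and Spry2 both have 8 peaks, but their densities are 2.65 and 12.3, and both Hras peaks and 6 of the 8 Nf1 peaks are hatched.

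The peaks of these genes were not strong ones within the list. Their median fold enrichment was 4.06 against 4.51 for all peaks, their median read number was 16 against 18, and 15 of 48 lay above the median fold enrichment of the list. Reads ranged from 9 to 45, and 28 of the 48 peaks had fewer than 20, against 56.1% of the list. In the plot of reads at each summit, the peak with the most reads had an interval above those of 6 of the 7 other peaks at Nf1 (45 reads, 32.8 to 60.2), 3 of 6 at Dusp6 (39 reads, 27.7 to 53.3) and 2 of 5 at Cblb (32 reads, 21.9 to 45.2). At the other 6 genes no interval was clear of that of the peak with the most reads, or there was no other peak. Overlapping intervals do not show that 2 peaks have equal signal, and the order of peaks was not tested. The q-value was above 0.05 for 6 of the 48 peaks, at Cblb (1), Spred1 (2), Spry2 (2) and Dusp6 (1), against 7.24% of the list, and for none of the 3 at the Ras genes.

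**Figure D3:**
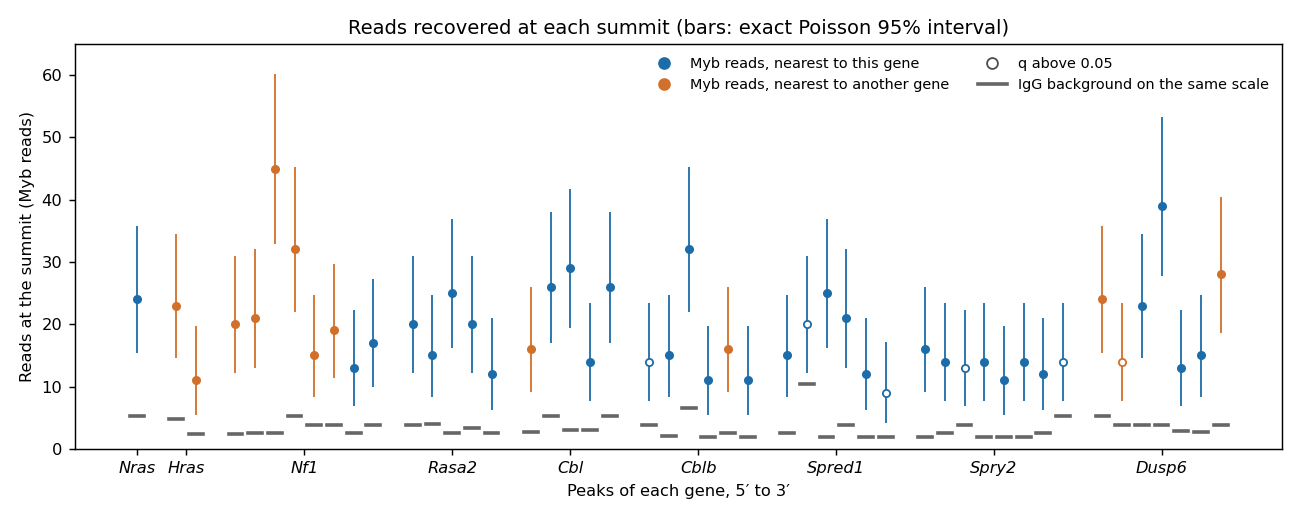
Myb reads at the summit of each of the 48 peaks (points, bars are exact Poisson 95% intervals) and the IgG background used for that peak on the scale of Myb reads (gray dashes), by gene and in 5′ to 3′ order. The lowest background, 1.90 reads, is the genome-wide value. Reads run from 9 to 45 over backgrounds of 1.90 to 10.4 reads, and the 6 open points are peaks with q above 0.05.

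Promoter peaks and the remaining peaks differed in base composition more than in strength. The 19 promoter peaks had a median fold enrichment of 4.01 and the 29 others 4.10. Within 301 bp around the summit, the promoter peaks had a median of 52.5% G and C and 13 CpG dinucleotides, and the others 42.2% and 3. Over the whole list the same medians were 51.5% and 9 at promoters of any gene and 45.5% and 3 elsewhere. Summits in sequence that the reference marks as repeat made up 6 of the 48, and 11.1% of the list.

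The Myb motif, searched as CAACGG with either G or T as the fifth base and either C or T as the opening base, on both strands within 50 bp of the summit, was present at 9 of the 48 summits, or 18.75% (8.95 to 32.6), against 16.7% of all peaks. A match is a description of the sequence and not a measured binding site. It was present at 1 of 19 promoter summits (5.26%, 0.133 to 26.0) and at 8 of the 29 others (27.6%, 12.7 to 47.2), and these intervals overlap. Over the whole list the shares were 14.7% at promoters of any gene and 19.4% elsewhere. That split is unlike the one of the 48 peaks, which used only the gene's own start sites. The 29 others include summits close to a start of another gene. Among those with a Myb motif were summits 307 bp from an Rnh1 start, 100 bp from an Evi2b start and 154 bp from an Evi2a start. The shares of the 2 splits are therefore not directly comparable. Motifs of other families in the same window were counted in the same way on both strands, whether or not they overlapped another motif. ETS motifs (AGGAAG, with A or C as its opening base) were present at 9 of the 48 summits (18.75% against 20.4% of the list), GATA motifs (AGATAA, with A or T as its opening base and A or G as its last) at 8 (16.7% against 20.1%) and RUNX motifs (TGTGGT, with T or C as the third base) at 3 (6.25% against 12.2%). The CEBP motif TTGCNNAA was present at 6 (12.5%, 4.73 to 25.2, against 6.16%) and the E-box CAGCTG, with C or A as the fourth base, at 7 (14.6% against 14.2%). For each of these 5 families and for Myb, the share of the list lay within the interval of the 48 peaks. All 3 peaks of the Ras genes held an ETS motif, and 6 of the 45 of the negative regulators did. Of these 3, both peaks assigned to Hras were nearest to Rnh1 and only the Nras peak was at a Ras gene promoter. With so few peaks the difference was not tested.

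**Figure D4:**
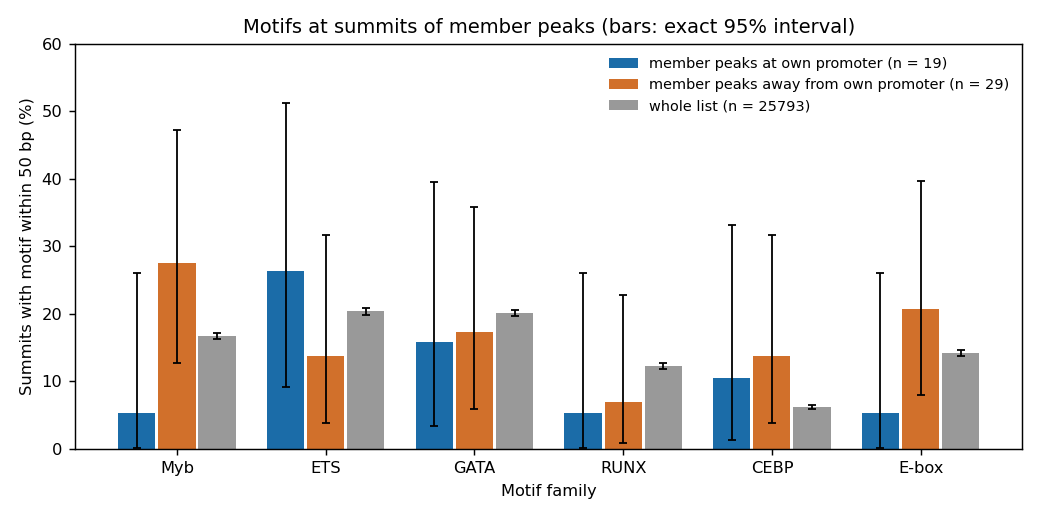
Share of summits with a motif within 50 bp (y, percent, bars are exact 95% intervals) for 6 motif families (x), at the 19 promoter peaks and the 29 other peaks of the 9 genes and over the whole list. The Myb motif share is 5.26% at promoter peaks and 27.6% at the others, with overlapping intervals, and 16.7% over the list.

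In RefSeq promoters (GRCm38.p6, 250 bases before to 50 after the start), all 9 genes had an entry, and 28.3% of all 32851 promoters held a Myb motif. It was present in those of Nras and Dusp6. In Nras it lay 319 bp from the summit and outside the peak, and in Dusp6 65 bp from the summit and inside the peak.

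The rest of the pathway was covered by 46 further genes, of which 42 had at least 1 peak, 35 a promoter peak and 11 a peak of 10-fold or more. Over all protein-coding genes these shares were 62.8%, 39.9% and 8.95%, and they are the background for the classes that follow. Among the other 5 Ras GTPases, 4 had a peak and 2 a promoter peak, and among the other 21 negative regulators 20 had a peak and 18 a promoter peak. With the 9 genes included, promoter peaks were present at 3 of 7 Ras GTPases and 25 of 28 negative regulators, and the median density was 2.69 and 3.36 peaks per 100 kb. The plot of density by class shows that the classes overlap widely.

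Rras and Rit1 had peaks of 14.5 and 10.2 that were nearest to Bcl2l12 and Gm10253. Of the exchange factors and adaptors, which load Ras with GTP or link it to receptors, 10 of 11 had a peak and 8 a promoter peak. Sos1 had 3 peaks up to 6.70, Sos2 reached 12.6 at 511 bp from its own start, and Grb2 reached 11.6 at 4336 bp from its own. Gab2 reached 10.4 at a summit for which the nearest start site, 103656 bp away, was that of Usp35. Ptpn11, which encodes the phosphatase SHP2, had 10 peaks, the strongest with 89 reads (71.5 to 110) and a fold enrichment of 13.9, although that one was nearest to Hectd4. Of the kinases and scaffolds 8 of 9 had a peak and 7 a promoter peak. Among them Braf had 4 peaks up to 4.86, and that strongest one was 37 bp from a start of Ndufb2. The 13.9-fold peak in the window of Shoc2 was 70 bp from a start of Bbip1.

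Among the negative regulators outside the 9, the strongest peaks were at phosphatase genes of the Dusp6 family. The highest value at Dusp2 was 14.1, from 60 reads (45.8 to 77.2), at a summit 7470 bp from its own start and so not a promoter peak. Dusp1 reached 13.9 with 66 reads (51.0 to 84.0) at 160 bp from its own start. These values were above that of the Dusp6 promoter peak (7.75, 39 reads, 27.7 to 53.3), although the intervals of Dusp2 and Dusp1 on reads overlap that of Dusp6. Spry1 reached 10.6 at a summit nearest to another gene, and Rasa1 had 5 peaks up to 5.98 at 36 bp from its own start. No peak was assigned to Rras2, Rasgrp1, Araf or Errfi1.

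**Figure D5:**
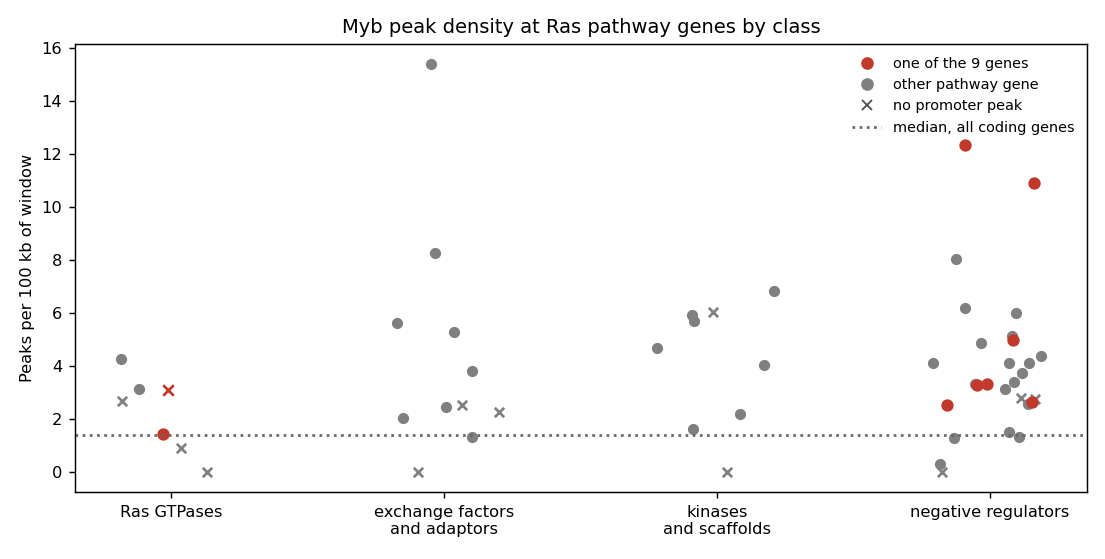
Myb peaks per 100 kb of window (y) for the Ras pathway genes by class (x, with sideways scatter for legibility), the 9 genes in red and the other 46 in gray, with crosses for genes without a promoter peak and a dotted line at the median of protein-coding genes (1.38). Spry2 (12.3) and Dusp6 (10.9) lie above every other negative regulator, and the classes overlap.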

How the data were processed

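ChIP-Seq was performed by the authors on Lin- bone marrow cells of WT mice, with 12 cycles of PCR and 1 library each for Myb and IgG. Per the submitters' processing notes and the study's methods, the authors used Cutadapt 1.15 for trimming and BWA 0.7.13 for alignment to mm10, removed duplicates with Picard and low-quality and blacklisted reads, and called narrow peaks with MACS2 2.1.1.20160309 against IgG. They kept calls shared by pseudo-replicates, which are subsets of 1 library. The deposited list gives the fold enrichment (a ratio of Myb pileup to IgG background, local or genome-wide), the −log10 p-value and the −log10 q-value of each peak. The deposited score was not used.

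Groups came from the sample titles. Coordinates are mm10 and 1-based. Summits were assigned to GENCODE vM21 genes with Python 3.11.15, pandas 2.3.3 and pysam 0.24.0, and promoter peaks were those within 3 kb of a start site. Reads were recovered as the whole number that, multiplied by 0.769 (fitted) and with a pseudocount of 1 in the fold enrichment, gave the deposited p-value (tolerance 0.002 in −log10 p). This gave a whole number for 100% of peaks, and 1.20% of peaks allowed more than 1 read number. Recovered reads range from 7 to 130 per peak, and the depth of the library is not given in the list. The scripts were checked on simulated data. No test was run, since there was 1 library. Base composition, repeats and motifs were read from the GRCm38.p6 sequence, and promoter sequences from RefSeq.

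The 9 genes, the pathway and marker lists and the alternatives were chosen with earlier results of these data known. All 9 genes were named. Of the other pathway genes, the text names Braf, Sos1, Ptpn11, Rasa1 and those with a peak of 10-fold or more, except some genes that are not reported here. Genes without a peak and the marker genes were named after their values were seen. Alternatives were other windows, stricter q-values, other promoter definitions and other motif settings.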

Additional observations from a re-analysis of the deposited data

How the results depend on the processing

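A count was taken as the same when it stayed within 1.5 times of the main one, and a share or ratio when it stayed within the 95% interval of the main one, which is wide here. On that basis, of 50 comparisons of a main result with an alternative, 38 left the result the same, and of 63 for the peak number of a single gene 40 did, with 6 higher and 17 lower. With 10 kb around the body, or the body plus 3 kb, the Ras genes kept 1 peak, and Hras had 0. With 100 kb the 9 genes had 86 peaks, 17 at the Ras genes and 69 at the negative regulators, and the ratio of densities turned to 0.812. This ratio was 2.48 with 10 kb, 1.23 with the body plus 3 kb and 4.29 as peaks per gene. A −log10 q of at least 5 left 14 peaks, 0 at the Ras genes and 14 at the negative regulators, with 9 nearest to the gene's own start and promoter peaks at 3 genes, and the ratio could not be computed. A limit of q of at most 0.05, the study's stated one, which the deposited list exceeds in places and which was added after seeing the data, left 42 peaks and promoter peaks at 7 genes. Promoter peaks were also present at 7 genes with a promoter window of 1 kb, and at 7 with protein-coding transcripts only. The looser Myb motif AACNG was present at 56.25% of the 48 summits and 54.3% of the list. The direction of the shifts in counts and of the looser motif's share follows from the construction of the alternatives. They count more or less sequence, fewer peaks or a shorter motif. The turn of the density ratio at 100 kb does not follow from it, since a wider window adds sequence to both sets. From the main window to 100 kb, peaks rose from 3 to 17 at the Ras genes and from 45 to 69 at the negative regulators. The reason for this turn was not tested. No paired analysis was possible because Myb and IgG had 1 library each, and no replicate could be left out. Most peaks rest on few reads, which limits the order of peaks within a gene.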
